A study of Homo sapiens with 6 samples.

Results

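Integrins, laminins and nidogens form the contact between epithelial cells and the basement membrane. Their transcripts were followed in SAS cells, an established oral squamous cell carcinoma line, after knockdown of CYLD and after blockade of ALK5, a receptor kinase for TGF-β. The members were 37 listed gene symbols, found through the platform annotation: 17 integrin α chains, 8 integrin β chains, 10 laminin chains and 2 nidogens. Of these, 35 had at least 1 probe set carrying their symbol alone, 95 probe sets in all out of 54675 on the array. ITGB6 shared its 4 probe sets with another symbol and was given no value, and LAMA3 was not analysed here.

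Cells were transfected with a control siRNA (siCtrl) or an siRNA against CYLD (siCYLD), grown for 2 days, and then held for 48 h without serum with either DMSO, called untreated below, or an ALK5 inhibitor that the labels do not name. By their titles, untreated cells had 2 arrays for each siRNA and inhibitor-treated cells 1 array for each. The labels describe 1 CYLD siRNA and no rescue, so effects on other targets of that siRNA cannot be told apart from loss of CYLD. They do not say whether the duplicates were separate cultures, so p-values speak to array-to-array spread alone, possibly technical. In 2 arrays the source name contradicts the title: siCYLD replicate 1 is given there as control and siCtrl replicate 2 as knockdown. Titles set the groups here.

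An integrin is a pair of one α and one β chain that spans the plasma membrane, binds matrix outside and links to actin or keratin filaments inside. The pair decides the ligand: collagens, laminins, or proteins with an RGD motif such as fibronectin. Laminins are trimers of an α, a β and a γ chain in the basement membrane, and nidogens bridge laminin to collagen IV. In stratified epithelium the integrin of ITGA6 and ITGB4 sits in hemidesmosomes, while chains that join ITGAV can release latent TGF-β.

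The values were MAS5 signals on a linear scale, analysed as log2 of the signal plus an offset of 16.06. Each gene stood as its brightest probe set that passed an expression filter, a group mean above a signal of 79.33. The word called is used for an adjusted p under 0.05 (limma, two-sided, Benjamini-Hochberg over 12935 genes). Of the 35 members, 24 passed: 12 α chains, 6 β chains, 6 laminins and 0 nidogens. CYLD, by its brightest kept probe set, read 411 and 500 in siCtrl against 278 and 230 in siCYLD, or 55.8% of the siCtrl level, and 349 and 176 in the inhibitor pair. The 3 other kept CYLD probe sets had 19.5%, 39.8% and 58.6% left. The arrays with conflicting labels, siCYLD replicate 1 (278) and siCtrl replicate 2 (500), each stood with the group of its title in CYLD signal. The squamous markers KRT5, KRT14, DSG3 and SFN passed the filter, KRT14 only at signals of 62.3 to 148. With the knockdown DSG3 fell by 0.64 (adjusted p = 0.00224, limma), and KRT5 (-0.32), KRT14 (0.78) and SFN (0.21) were not called but had unadjusted p under 0.05. Between the siRNAs the ACTB 3'/5' ratio did not overlap, at 3.21 to 3.67 in siCtrl arrays and 2.26 to 2.48 in siCYLD arrays, while that of GAPDH did, at 1.79 to 2.14 and 1.8 to 1.97. Further, 24 probe sets of the dap, lys, phe and thr spike-in controls read higher in siCYLD by medians of 0.18 to 0.39 (log2) in the 3 pairs. The part of these in the knockdown differences below was not tested.

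**Figure D1:**
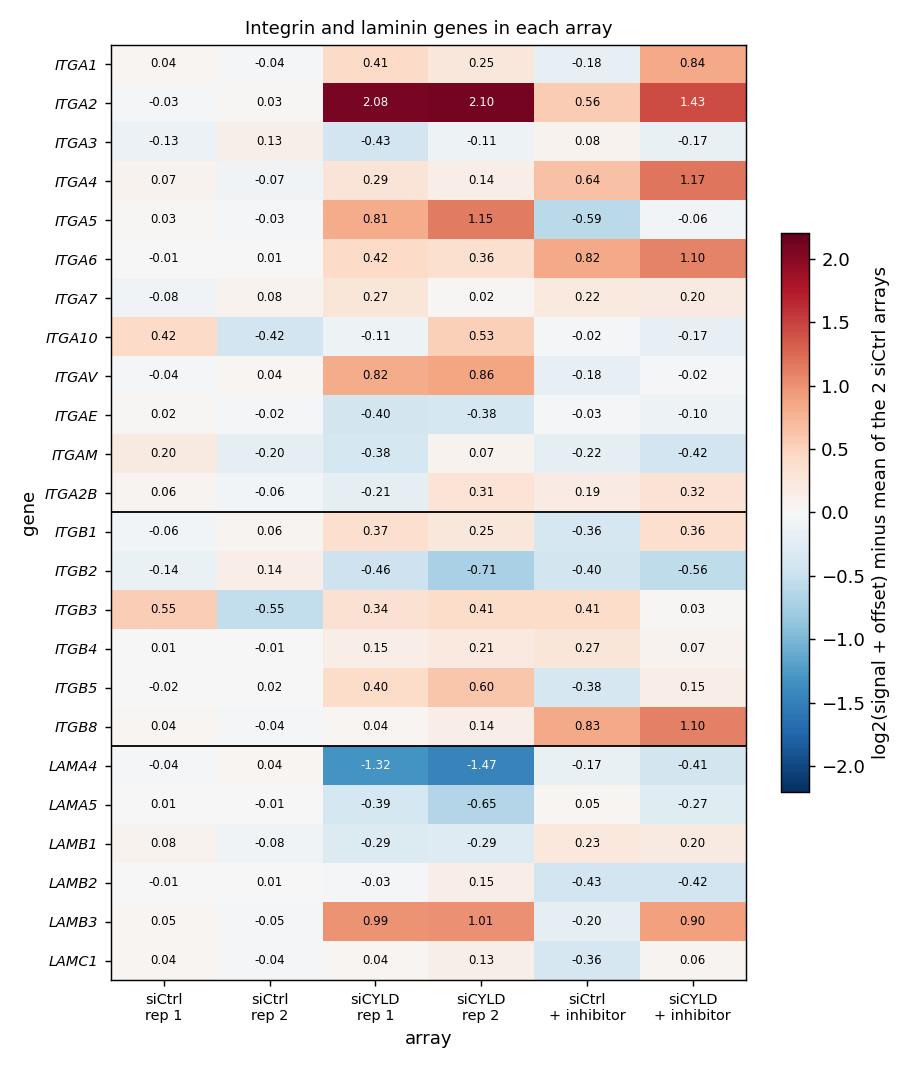
Each row is 1 of the 24 genes that passed the filter and each column 1 array. Cells give log2(signal + offset) minus the mean of the 2 untreated siCtrl arrays, with lines between α chains, β chains and laminins; ITGA2 stands at 2.08 or above in both untreated siCYLD arrays and LAMA4 at -1.32 and -1.47.

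The start regions of 4 genes whose transcripts moved most are shown, each at an annotated start. The arrays do not tell which start the measured transcripts used. They are from RefSeq (GRCh38.p14), run 5′ to 3′ on the gene's own strand from 120 bases before the annotated start to 10 after it, and capitals mark an AP-1 motif (TGANTCA on either strand). ITGA2 lies at chr5:52989232-52989361 (plus strand), ITGA5 at chr12:54419257-54419386 (minus), the LAMB3 start shown at chr1:209651365-209651494 (minus) and LAMA4 at chr6:112254558-112254687 (minus).
ITGA2: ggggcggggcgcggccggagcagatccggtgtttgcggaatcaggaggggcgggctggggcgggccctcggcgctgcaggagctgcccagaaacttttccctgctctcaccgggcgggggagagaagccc
ITGA5: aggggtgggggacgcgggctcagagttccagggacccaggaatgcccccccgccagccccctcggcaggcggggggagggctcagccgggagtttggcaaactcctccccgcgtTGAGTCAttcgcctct
LAMB3: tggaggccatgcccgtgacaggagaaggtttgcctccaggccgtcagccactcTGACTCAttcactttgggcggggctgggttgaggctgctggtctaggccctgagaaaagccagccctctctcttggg
LAMA4: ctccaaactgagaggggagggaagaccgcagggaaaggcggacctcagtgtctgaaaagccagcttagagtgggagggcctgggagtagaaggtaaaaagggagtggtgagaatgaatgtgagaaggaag

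The AP-1 letters begin 6 bases before the ITGA5 start and 67 bases before this LAMB3 start. LAMB3 has other annotated starts, whose stretches of the same length lie at chr1:209652416-209652545 and chr1:209652320-209652449 (minus). The AP-1 letters stand in neither of their windows. RefSeq windows of 300 bases, 250 before and 50 after each start, were held for 25 of the 35 members, 32 windows in all. AP-1 letters stood in 2 of these 32 (6.25%) and in 7.71% of all 35116 windows. The 7 members called higher with the knockdown had 14 windows, of which those 2 held the letters, and 4 of those called lower had 4 windows, of which 0 did. The SMAD palindrome GTCTAGAC stood in 0 of the 32 windows and in 0.202% of all windows. The window of ITGA2, whose transcript rose most, holds neither motif.

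With the CYLD siRNA, the collagen receptor chain ITGA2, the fibronectin receptor chains ITGA5 and ITGAV, and the laminin chain LAMB3 rose, and the laminin chains LAMA4 and LAMA5 fell. Of the 24 members tested, 7 were called higher and 5 lower, 12 in all. Over all genes tested 21.3% were called, 9.49% higher and 11.8% lower. The median log2 difference was 0.16 over the members and -0.04 over all genes. Without the intensity trend in limma's moderation 5 members were called, and 1219 of all genes in place of 2757. LAMA5 was not called there (adjusted p = 0.0824, limma), while the other chains named in this paragraph were. The additive model without both arrays with conflicting labels also called 5 members, and 1052 of all genes. It averages over the remaining untreated pair and the inhibitor pair, so its values are not those of untreated cells alone.

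**Figure D2:**
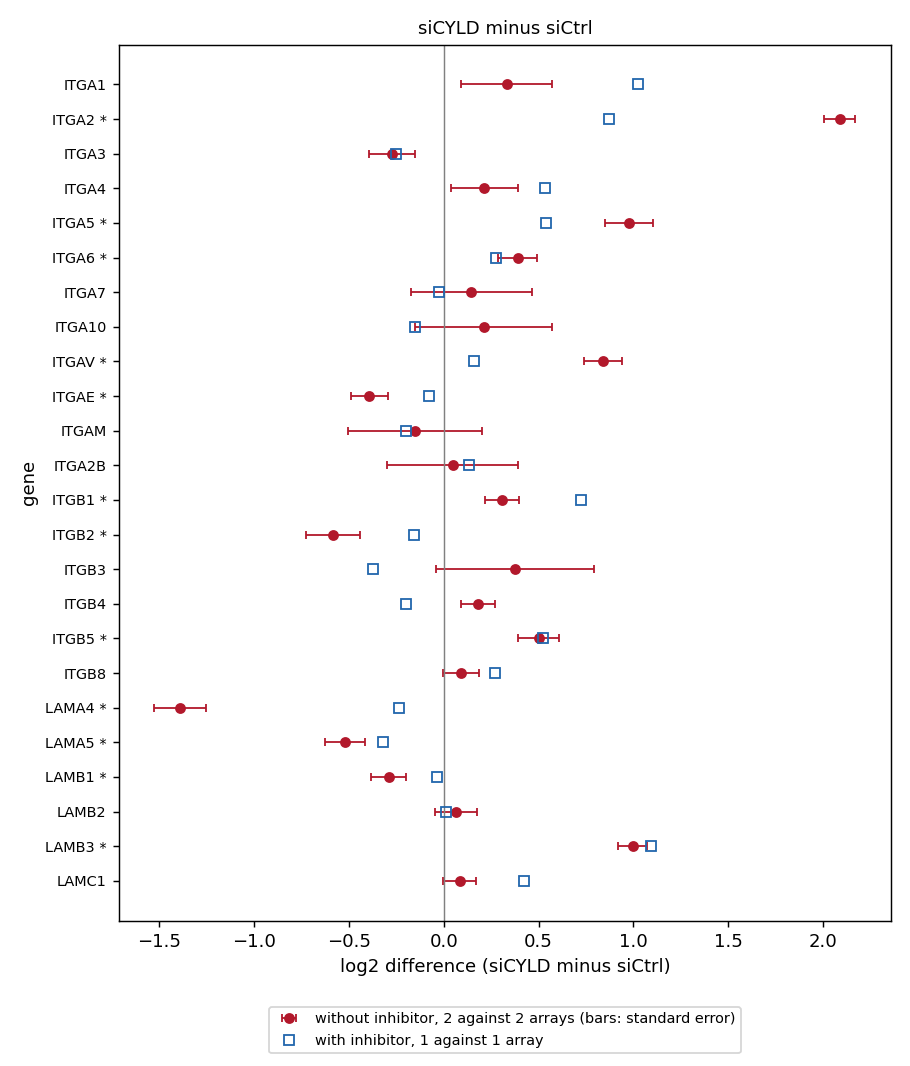
Points give the log2 difference, siCYLD minus siCtrl, for each of the 24 genes, with standard errors for the untreated arrays (2 against 2) and open squares for the inhibitor pair (1 against 1, no error). An asterisk marks an adjusted p below 0.05 without inhibitor (12 genes); ITGA2 lies farthest to the right at 2.09 and LAMA4 farthest to the left at -1.39.

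Among collagen receptors, ITGA2, the α chain that pairs with ITGB1 to bind fibrillar collagen, read 4650 and 4870 in untreated siCtrl against 20200 and 20400 in untreated siCYLD. The groups did not overlap, and the duplicates lay close together. ITGA2 rose by 2.09 ± 0.08 (log2 ± standard error, 2 arrays against 2; adjusted p = 3.78e-09, limma), 4.25-fold on the offset scale. Its other kept probe set gave a difference of 3.20, from 933 and 1400 to 10300 and 10900. The related collagen receptor chain ITGA1 read 122 and 115 in siCtrl against 164 and 144 in siCYLD, a difference of 0.33 ± 0.24 that was not called (adjusted p = 0.361, limma). ITGA10, a collagen receptor chain of cartilage, overlapped between groups, at 130 and 65.3 against 84.9 and 142. ITGA11, a fibroblast collagen receptor chain, did not pass the filter.

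Among receptors for fibronectin and other RGD proteins, ITGA5, which with ITGB1 forms the main fibronectin receptor, read 1310 and 1270 in siCtrl against 2270 and 2880 in siCYLD. Both siCYLD arrays were higher than both siCtrl arrays. ITGA5 rose by 0.98 ± 0.13 (adjusted p = 0.000122, limma). ITGAV, the shared partner of several β chains, read 2060 and 2200 in siCtrl against 3770 and 3880 in siCYLD, again without overlap. It rose by 0.84 ± 0.10 (adjusted p = 6.25e-05, limma). An additive limma model without both arrays with conflicting labels gave 0.53, and the call was lost (adjusted p = 0.0868). That value averages over the inhibitor pair too, where ITGAV differed by 0.16. The untreated arrays left in it read 2060 (siCtrl replicate 1) and 3880 (siCYLD replicate 2). ITGB5, a vitronectin receptor chain that pairs with ITGAV, read 2110 and 2160 against 2820 and 3260 and rose by 0.50 ± 0.11 (adjusted p = 0.0052, limma).

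The ITGB5 call rested on 1 probe set. The 3 dimmer kept probe sets differed by 0.20, 0.23 and -0.20, and the mean over the 4 gave 0.18 (adjusted p = 0.47, limma). The call was also lost without siCYLD replicate 2 (0.40, adjusted p = 0.0561). ITGB8, the other tested ITGAV partner known for activating latent TGF-β, read 3140 and 2970 in siCtrl against 3130 and 3370 in siCYLD, which overlapped. Its difference of 0.09 had a 95% interval of -0.12 to 0.30. ITGB3, the platelet and osteoclast partner of ITGAV, overlapped too, with siCtrl at 91.7 and 34.4 and siCYLD at 77.3 and 81.9.

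Among laminin receptors, ITGA6, the α chain of hemidesmosomes, read 1660 and 1680 in siCtrl against 2240 and 2150 in siCYLD. It rose by 0.39 ± 0.10 (adjusted p = 0.0155, limma), and its other kept probe set differed by 0.29. The call was lost without siCYLD replicate 1 (0.36, adjusted p = 0.086). Its hemidesmosome partner ITGB4 read 5470 and 5390 against 6030 and 6280. The ITGB4 groups did not overlap, but the difference of 0.18 ± 0.09 was not called (adjusted p = 0.171, limma), with a 95% interval of -0.01 to 0.37. ITGA3, the α chain of the other epidermal laminin receptor, read 4660 and 5600 in siCtrl against 3790 and 4720 in siCYLD. The ITGA3 groups overlapped, and the difference of -0.27 ± 0.12 was not called (adjusted p = 0.135, limma). It was called without siCtrl replicate 1 (-0.40, adjusted p = 0.0338) and without siCYLD replicate 2 (-0.43, adjusted p = 0.0173). ITGA7, a muscle laminin receptor chain, read 73.1 to 97.9 over the 4 untreated arrays.

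ITGB1, the common partner of the collagen, laminin and fibronectin receptor α chains, read 7080 and 7710 in siCtrl against 9540 and 8770 in siCYLD. Both siCYLD arrays were higher. ITGB1 rose by 0.31 ± 0.09 (adjusted p = 0.0292, limma), and of 3 further kept probe sets 2 differed by 0.41 and 0.45 and 1 by -0.43. The last was dim, at 30.9 to 82 over all arrays, and passed the filter only through the siCtrl inhibitor array. The call was lost without siCtrl replicate 1 (0.24, adjusted p = 0.108) and without siCYLD replicate 1 (0.25, adjusted p = 0.194). The mean of the kept ITGB1 probe sets, the dim one included, gave 0.18 (adjusted p = 0.287).

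Of the chains best known from leukocytes, ITGAE, which binds E-cadherin as a partner of ITGB7, read 2960 and 2870 in siCtrl against 2200 and 2230 in siCYLD. In log2 it fell by 0.39 with a standard error of 0.10 (adjusted p = 0.0132, limma). Without siCYLD replicate 1 the call was lost (-0.38, adjusted p = 0.0556). ITGB2, the common β chain of leukocyte integrins, read 990 and 1210 against 792 and 662, without overlap. It fell by 0.59 with a standard error of 0.14 (adjusted p = 0.0103, limma). The ITGB2 call was lost without siCtrl replicate 2 (-0.44, adjusted p = 0.0778) and without siCYLD replicate 2 (-0.46, adjusted p = 0.0516).

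The leukocyte markers were low in all arrays. PTPRC, which encodes the pan-leukocyte antigen CD45, read 4.16 to 42.3, and 1 of 4 leukocyte markers with a probe set passed the filter, CD3E at 55.2 to 113. Their summed signal was 170 to 206.4 in untreated arrays and 141.1 and 182.2 with inhibitor. The partners of ITGB2 were at or near the filter: ITGAM read 64.2 to 104 in untreated arrays, and ITGAL and ITGAX did not pass. ITGB7, the partner of ITGAE and ITGA4, read 8.49 to 16.3 over the 6 arrays. ITGA4, a receptor chain for fibronectin and VCAM1, read 227 and 204 in siCtrl against 266 and 238 in siCYLD, a difference of 0.21 ± 0.17 that was not called (adjusted p = 0.423, limma). ITGA2B, the platelet partner of ITGB3, read 60.9 to 94.6 in untreated arrays. Summed platelet markers (PF4, GP9 and GP1BA, 2 of 3 past the filter) read 187.3 and 157.6 in siCtrl against 326.4 and 244.6 in siCYLD, and their part in the ITGA2 and ITGB3 values was not tested.

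Laminin chains went both ways. LAMB3, a chain of the laminin that anchors hemidesmosomes, read 20800 and 19500 in siCtrl against 39900 and 40500 in siCYLD. The groups lay far apart beside the gaps within them. LAMB3 rose by 0.996 ± 0.075, 1.99-fold (adjusted p = 1.25e-06, limma). It had 1 kept probe set.

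LAMA4, an α chain best known from endothelial and muscle basement membranes, read 872 and 920 in siCtrl against 350 and 314 in siCYLD. It fell by 1.39 with a standard error of 0.14 (adjusted p = 9.8e-06, limma). Its other kept probe set differed by -0.32, from 101 and 64.7 to 80.1 and 46.9. That probe set stood for the gene when those ending in _x_at or _s_at were left out, and the call was then lost (adjusted p = 0.59).

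LAMA5, the α chain of the most widespread epithelial laminins, read 4320 and 4280 in siCtrl against 3280 and 2730 in siCYLD. It fell by 0.52 with a standard error of 0.11 (adjusted p = 0.00365, limma). The additive limma model without both arrays with conflicting labels gave -0.49, and the call was lost (adjusted p = 0.0779). That value averages over the inhibitor pair too, where LAMA5 differed by -0.32. The untreated arrays left in it read 4320 (siCtrl replicate 1) and 2730 (siCYLD replicate 2). LAMB1, a β chain of many laminins, read 7560 and 6790 against 5840 and 5860. It fell by 0.29 with a standard error of 0.09 (adjusted p = 0.0369, limma). Its call was lost without siCtrl replicate 1 (-0.21, adjusted p = 0.155), without siCYLD replicate 1 (-0.29, adjusted p = 0.114) and without siCYLD replicate 2 (-0.29, adjusted p = 0.114). LAMC1, the usual γ chain, read 7750 and 7320 against 7740 and 8230, and its difference of 0.08 had a 95% interval of -0.11 to 0.27. Its other kept probe set lay outside that interval, at 0.305, from 3430 and 3580 to 4160 and 4510 without overlap. The mean of the LAMC1 probe sets gave 0.194 and was not called (adjusted p = 0.149, limma). LAMB2, a β chain of muscle and kidney laminins, overlapped between groups, at 1800 and 1820 against 1780 and 2010.

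The 11 members below the filter were ITGA8, ITGA9, ITGA11, ITGAL, ITGAX, ITGB7, LAMA1, LAMA2, LAMC3, NID1 and NID2. Their 28 probe sets read 0.316 to 93.4 over the 6 arrays, with a median of 17.2. Both nidogens were among them: the NID1 probe sets reached 72.1 and that of NID2 56.1. Of the 12 members with more than 1 kept probe set, 9 had all of them on the same side of 0 for the knockdown, and ITGA4, ITGB1 and ITGB5 did not. Duplicates of the 24 members differed by a median of 0.09 (siCtrl) and 0.15 (siCYLD) on the log2 scale, and those of all genes by 0.15 and 0.14.

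In the inhibitor pair, which has 1 array a side and no test, LAMB3 kept a difference like that of untreated cells and ITGAV did not. LAMB3 read 17600 in siCtrl and 37600 in siCYLD, a difference of 1.10. ITGB5 differed by 0.52, ITGA5 by 0.54 and ITGB1 by 0.72. ITGAV read 1880 and 2100, a difference of 0.16, and LAMA4 795 and 672, a difference of -0.24. ITGA2 read 7010 and 12800, a difference of 0.87. All 12 members called in untreated cells had the same sign in this pair, as did 88.3% of all 2757 called genes. A shared sign is not a kept size: LAMB1 differed by -0.038 there, ITGAE by -0.076 and ITGB2 by -0.155. ITGA1 read 103 and 225, a difference of 1.02 from low signals.

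**Figure D3:**
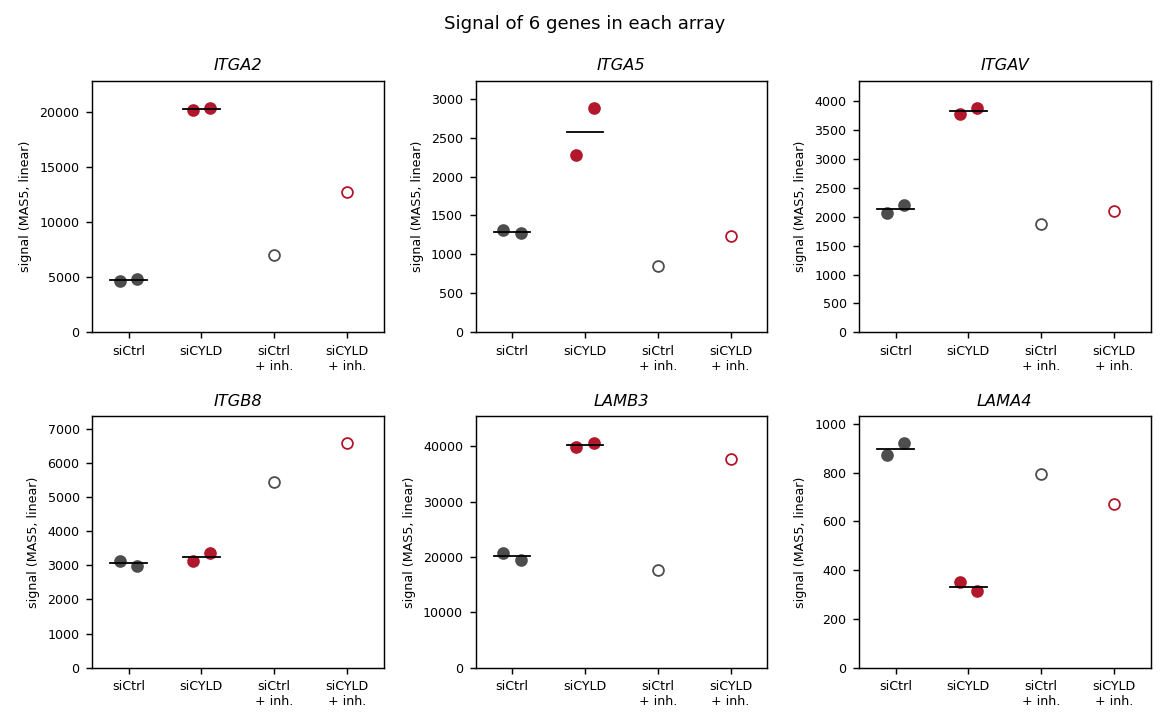
Linear MAS5 signals of 6 genes are plotted for each array, with black lines at the mean of the 2 untreated arrays, filled points for untreated and open points for inhibitor arrays, each panel on its own scale from 0. LAMB3 is 37600 to 40500 in the 3 siCYLD arrays, ITGAV is 3770 and 3880 in untreated siCYLD and 2100 with inhibitor, and ITGB8 is 5440 and 6570 with inhibitor against 2970 to 3370 without.

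With the ALK5 inhibitor ITGB8, ITGA4, ITGA6 and LAMB1 rose and ITGA5, ITGAV, ITGB5 and LAMB2 fell. The comparison asks which transcripts differ when the receptor is blocked, with 2 inhibitor arrays against 4 untreated arrays over both siRNAs in an additive limma model. Of the 24 members, 4 were called higher and 4 lower, 8 in all. Over all genes tested 20.0% were called, 11.2% higher and 8.82% lower. The median difference was 0.06 over the members and 0.01 over all genes. Without the intensity trend 4 members were called, and 1087 of all genes in place of 2586. Without both arrays with conflicting labels 4 members were called, and 1325 of all genes.

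ITGB8 read 3140, 2970, 3130 and 3370 without inhibitor and 5440 (siCtrl) and 6570 (siCYLD) with it. Both inhibitor arrays were above all 4 untreated ones. ITGB8 rose by 0.92 ± 0.10 (adjusted p = 0.000185, limma), 1.89-fold. Its 2 other kept probe sets, both dim, differed by 0.69 and 1.04 in siCtrl cells and by 0.94 and -0.02 in siCYLD cells. The first passed the filter only through the siCYLD inhibitor array (113), the second only through the siCtrl inhibitor array (95.7). Being kept through inhibitor arrays, they give no separate support for the rise.

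ITGA6 read 1660 and 1680 (siCtrl) and 2240 and 2150 (siCYLD) without inhibitor and 2980 and 3600 with it. The inhibitor arrays stood above all others, and ITGA6 rose by 0.77 ± 0.10 (adjusted p = 0.000532, limma). Its other kept probe set differed by 0.64 in siCtrl and 0.84 in siCYLD cells. ITGA4 read 204 to 266 without inhibitor and 344 and 504 with it, and rose by 0.80 ± 0.16 (adjusted p = 0.00646, limma). All 4 of its kept probe sets were higher with inhibitor in both siRNAs. However, 1 of them, at 28.7 to 56.2 untreated, passed the filter only through the siCYLD inhibitor array (95). The rise of that probe set is no separate support. Leaving out the siCYLD inhibitor array gave an ITGA4 difference of 0.64 and ended the call.

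ITGA5 read 1310 and 1270 (siCtrl) and 2270 and 2880 (siCYLD) without inhibitor, and 849 and 1240 with it. Both inhibitor arrays lay below all untreated ones. ITGA5 fell by 0.81 with a standard error of 0.14 (adjusted p = 0.0026, limma), and the call held in all 16 alternative settings run for it. ITGAV fell by 0.52 with a standard error of 0.14 (adjusted p = 0.0245, limma), but its inhibitor arrays, 1880 and 2100, overlapped the untreated siCtrl arrays. Its value was -0.18 without the siCYLD inhibitor array (adjusted p = 0.403), -0.48 without siCYLD replicate 1 (adjusted p = 0.0731) and -0.46 without siCYLD replicate 2 (adjusted p = 0.0713), and the call was lost each time.

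ITGB5 was called lower, by 0.37 with a standard error of 0.10 (adjusted p = 0.0283, limma), from 2110 to 3260 without inhibitor to 1640 and 2370 with it. Each of 5 single arrays left out ended this call, siCtrl replicate 1 (-0.37, adjusted p = 0.0617), siCtrl replicate 2 (-0.36, adjusted p = 0.0612), siCYLD replicate 2 (-0.32, adjusted p = 0.0858), the siCtrl inhibitor array (-0.35, adjusted p = 0.0705) and the siCYLD inhibitor array (-0.38, adjusted p = 0.0976). With _x_at and _s_at probe sets dropped the sign turned, to 0.22 (adjusted p = 0.426).

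Of the laminins, LAMB1 rose with the inhibitor by 0.36 ± 0.09 (adjusted p = 0.0222, limma), from 5840 to 7560 without it to 8430 and 8210 with it. Its call was lost without siCtrl replicate 2 (0.34, adjusted p = 0.0571), siCYLD replicate 1 (0.34, adjusted p = 0.081), siCYLD replicate 2 (0.34, adjusted p = 0.0603) or the siCYLD inhibitor array (0.23, adjusted p = 0.22). LAMB2 read 1780 to 2010 without inhibitor and 1340 and 1350 with it, and fell by 0.46 with a standard error of 0.10 (adjusted p = 0.0124, limma). Without the siCYLD inhibitor array the LAMB2 value was -0.43 (adjusted p = 0.0673). LAMB3 was not called for the inhibitor (-0.15, 95% interval -0.31 to 0.01, adjusted p = 0.183), and neither was ITGB4 (0.08, adjusted p = 0.63).

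Of 3 endothelial markers, CDH5 and VWF were called higher with the inhibitor and PECAM1 was not. CDH5 read 5.83 to 63 untreated and 587 and 462 with inhibitor, VWF 25 to 71.4 and 169 in both. These 2 passed the filter only through the inhibitor arrays. PECAM1 read 188 to 216 untreated and 191 and 213 with inhibitor. The summed signal of the 3 was 229.7 to 338.7 in untreated arrays and 947 and 844 with inhibitor. Platelet sums with inhibitor were 170.5 and 212.1, and fibroblast sums 366.6 and 468.8 against 359.6 to 471.4 untreated. Of the squamous markers KRT5 was the one called, at 900 to 1250 untreated and 12500 and 5600 with inhibitor. The part of these markers in the rise of ITGB8, ITGA4 and ITGA6 was not tested.

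**Figure D4:**
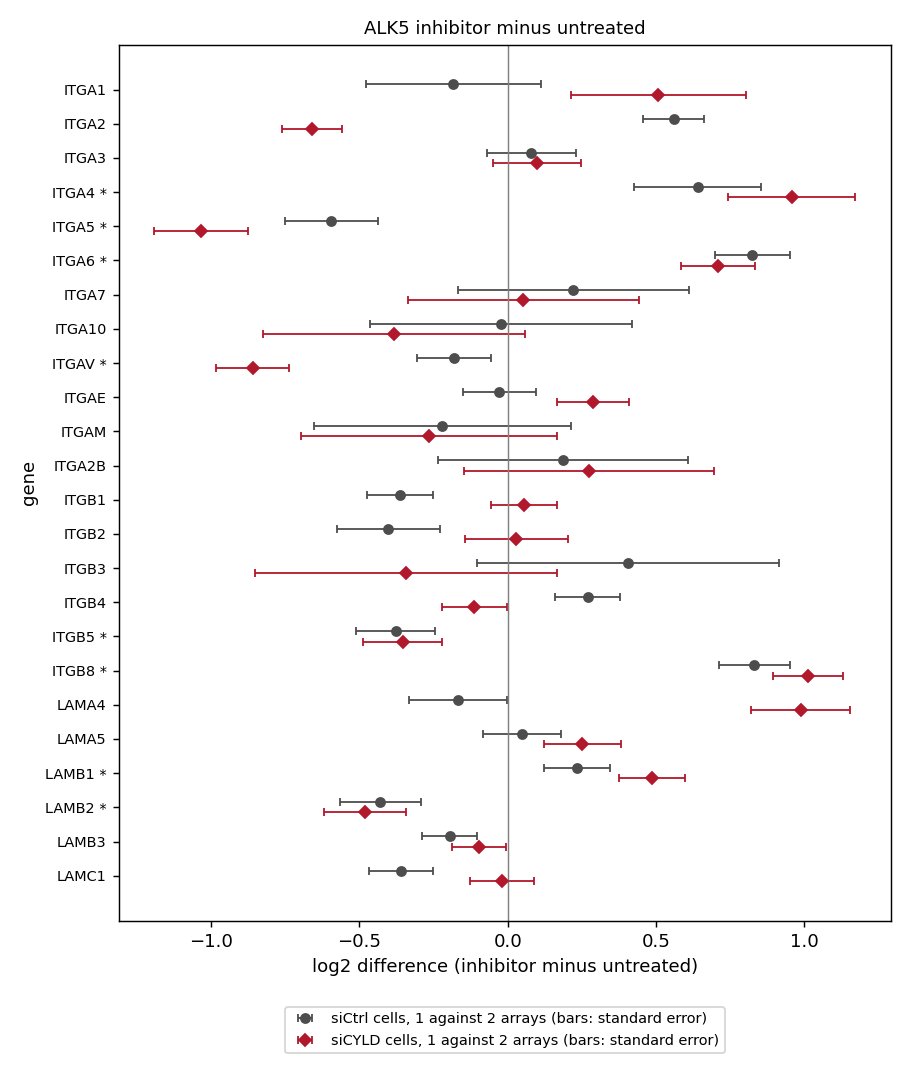
Points give the log2 difference, inhibitor minus untreated, in siCtrl and in siCYLD cells (1 against 2 arrays each), with standard errors. An asterisk marks an adjusted p below 0.05 across both siRNAs (8 genes); ITGA2 and LAMA4 stand apart between the siRNAs, at 0.56 and -0.66 and at -0.17 and 0.99.

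The inhibitor effect differed between the siRNAs for ITGA2 and LAMA4. In siCtrl cells 4 members were called for the inhibitor, against 9.36% of all genes, and in siCYLD cells 9, against 22.4%. These contrasts give each single inhibitor array the spread of the duplicates, and they share untreated arrays with the knockdown contrast. The test of the difference itself called 2 of 24 members, 1 each way, and 1.67% of all genes. Without the intensity trend it called 0 of all 12935 genes and so 0 members (1480 genes and 4 members at unadjusted p under 0.05, limma), and with _x_at and _s_at probe sets dropped it called 1.

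ITGA2 went from 4650 and 4870 to 7010 with inhibitor in siCtrl cells, a rise of 0.56 ± 0.10 (adjusted p = 0.00454, limma). In siCYLD cells it went from 20200 and 20400 to 12800, a fall of 0.66 with a standard error of 0.10 (adjusted p = 0.000587, limma). The difference between these effects was -1.22 ± 0.15 (adjusted p = 0.000979, limma). Its other probe set moved the same ways, by 0.61 and -0.89. Across both siRNAs the value was -0.05, and it was -0.66 without the siCtrl inhibitor array and 0.56 without the siCYLD one, both called. With inhibitor, the siCYLD array still read above the siCtrl array and above both untreated siCtrl arrays.

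LAMA4 went from 872 and 920 to 795 in siCtrl cells, a difference of -0.17 ± 0.17 that was not called (adjusted p = 0.584, limma). In siCYLD cells it rose from 350 and 314 to 672, by 0.99 ± 0.17 (adjusted p = 0.00103, limma). The difference between these effects was 1.16 ± 0.24 (adjusted p = 0.026, limma). The call on this difference was lost for the mean of both kept probe sets (0.86, adjusted p = 0.314), for the dimmer one alone (0.57, adjusted p = 0.766), with no filter (1.16, adjusted p = 0.146) and without the intensity trend (1.16, adjusted p = 0.2). The inhibitor value of LAMA4 across both siRNAs was 0.41 and not called, and it was 0.99 and called without the siCtrl inhibitor array (adjusted p = 0.00107).

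ITGAV fell by 0.86 with inhibitor in siCYLD cells (adjusted p = 0.000345, limma) and differed by -0.18 in siCtrl cells (adjusted p = 0.407). The difference between the effects was -0.68 ± 0.18 and was not called (adjusted p = 0.0821, limma), except without siCtrl replicate 2 (-0.73, adjusted p = 0.0472). ITGA5 fell by 1.03 in siCYLD cells and by 0.59 in siCtrl cells, the latter not called without siCtrl replicate 1 (-0.57, adjusted p = 0.0637), and the difference of -0.44 ± 0.22 was not called (adjusted p = 0.411). For ITGA6 and ITGB8 the effects in siCtrl and siCYLD cells were 0.83 and 0.71, and 0.83 and 1.01. Their differences were -0.12 ± 0.18 and 0.18 ± 0.17 and were not called (adjusted p of 0.827 and 0.688, limma).

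Genes that work beside the members were taken as lists. Of 29 adhesion adaptors, which couple integrin tails to actin and kinases, 26 were tested and 11 were higher and 3 lower with the knockdown, beside 9.49% and 11.8% of all genes, and their median was 0.29 beside -0.04 over all genes. PARVB, an actin-binding partner of the integrin-linked kinase, rose by 1.36 from 194 and 177 to 521 and 484. TNS1, a tensin, rose by 1.06 and TLN1, the talin that activates integrins, by 0.95, the latter from 376 and 343 to 773 and 651. With the inhibitor 2 of the 26 were higher and 4 lower, beside 11.2% and 8.82% of all genes, TNS4 rising by 0.97, TNS2 falling by 0.91 and the scaffold gene PXN by 0.78.

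Of 4 hemidesmosome partners 3 were tested, and 2 rose with the knockdown, beside 9.49% of all genes. PLEC, which links ITGB4 to keratin, rose by 1.08 from 1000 and 1020 to 2030 and 2280, and the tetraspanin gene CD151 by 0.46 from 2160 and 2310 to 2860 and 3310. With the inhibitor across both siRNAs 0 of the 3 were called (0 at unadjusted p under 0.05, limma), beside 20.0% of all genes. Within each siRNA, with 1 inhibitor array, PLEC differed by -0.63 in siCYLD and 0.01 in siCtrl cells. The other tested partners were DST at -0.338 and -0.004 and CD151 at 0.051 and 0.061, in the same order.

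Of 20 other basement membrane and laminin-binding genes 13 were tested, 8 higher and 3 lower with the knockdown, beside 9.49% and 11.8% of all genes, with a median of 0.48 beside -0.04. The anchoring fibril collagen COL7A1 rose by 1.92, COL18A1 by 1.42 from 197 and 157 to 506 and 486, and the collagen IV chain COL4A6 by 0.95 from 780 and 646 to 1310 and 1470. With the inhibitor 2 were higher and 1 lower, beside 11.2% and 8.82% of all genes: FRAS1, a basement membrane protein of the dermal junction, rose by 1.06, the perlecan gene HSPG2 by 0.45, and COL7A1 fell by 1.10. Of 18 integrin ligands 12 were tested, 6 higher and 0 lower with the knockdown, beside 9.49% and 11.8% of all genes. FN1, which ITGA5 binds, rose by 6.57, TGFBI by 1.72 and ICAM1, a ligand of ITGB2 integrins, by 1.58 from 832 and 703 to 2440 and 2210. With the inhibitor 0 ligands were higher and 4 lower, beside 11.2% and 8.82% of all genes, among them CCN2 at -1.61, TGFB1 at -1.08 and FN1 at -2.83. The inhibitor values of FN1 and COL7A1 average unlike effects, each from 1 inhibitor array. FN1 differed by -0.49 in siCtrl and -5.16 in siCYLD cells, and COL7A1 by -0.14 and -2.06. These lists share arrays and fits with the members and were read only by their counts.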

How the data were processed

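RNA of 6 samples was measured on Affymetrix arrays (2 µg of total RNA, per the labels' protocols). The authors deposited an intensity for each probe set, and the submitters' processing notes name MAS5; its version and a genome build were not given in the sources used here. Trimmed means (2% at each end) were 499.9 on all 6 arrays and medians 73.4 to 84.8. The number of arrays limits the precision.

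Probe sets with 1 symbol (41091) were used, and 41037 had an Entrez identifier in the RefSeq gene table, which changed 0 symbols. Values were log2(intensity + 16.06), the offset being the 20th percentile, and 24537 probe sets passed the filter given above, a highest group mean above the median of all log2 values. With limma 3.58.1 (R 4.3.3, intensity trend) a model of 4 group means (2 residual and 10.9 prior degrees of freedom) gave the knockdown, the inhibitor effect in siCtrl and in siCYLD cells, and their interaction, and an additive model (3 and 7.98) the inhibitor effect across both. The knockdown test was also run on simulated normal values drawn with the spread of its own fit. That run cannot check the fitted spread itself. Figures used matplotlib 3.10.9.

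The members and lists were chosen with earlier results of these data known. All members passing the filter were described; from each list the up to 3 called genes of largest difference were named. Alternatives changed the offset, filter, probe set choice, normalization, moderation, arrays, grouping and pairing.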

Additional observations from a re-analysis of the deposited data

Results flagged for a closer look

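Results below had an inhibitor effect that differed between the siRNAs by the interaction test (siCYLD minus siCtrl, log2, limma). For ITGA2 the difference was -1.22 and for LAMA4 1.16, as described above. Among the genes named from the lists, it was -4.67 for FN1 (adjusted p = 4.01e-07), -2.87 for TGFBI (adjusted p = 1.08e-06), -1.92 for COL7A1 (adjusted p = 0.000254), -1.06 for TNS4 (adjusted p = 0.048) and 1.03 for ICAM1 (adjusted p = 0.0274). TNS4 read 421 to 499 in untreated arrays, 1240 in siCtrl with inhibitor and 634 in siCYLD with inhibitor. ICAM1 read 581 in siCtrl with inhibitor and 3650 in siCYLD with inhibitor. Each rests on 1 inhibitor array per siRNA.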

How the results depend on the processing

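Offsets of 1 and 64, quantile normalization and the robust moderation left every count of called members as it was (12, 8, 2, 4 and 9 for the knockdown, the inhibitor across siRNAs, the interaction, and the inhibitor in siCtrl and siCYLD cells). Leaving out 1 array gave 8 to 11 members for the knockdown, 4 to 9 for the inhibitor, 2 to 3 for the interaction, 4 to 6 in siCtrl and 8 to 10 in siCYLD cells. Without the siCYLD inhibitor array the inhibitor count was 4, and 5 without siCYLD replicate 2. Without the intensity trend the counts were 5, 4, 0, 0 and 6 (in siCtrl cells 7 at unadjusted p under 0.05). The interaction count was 1 with no filter, with the mean of the kept probe sets, and with _x_at and _s_at probe sets dropped. The additive model without both arrays with conflicting labels gave 5 for the knockdown, there averaged over untreated and inhibitor pairs, and 4 for the inhibitor. Grouped by source name, which puts 1 array of each title in each group, the knockdown count was 0 (0 at unadjusted p under 0.05). ITGA6 (-0.022), ITGB2 (0.018) and LAMB3 (-0.038) then changed sign with no call. The inhibitor value of ITGA2 was -0.66 without the siCtrl and 0.56 without the siCYLD inhibitor array, and that of ITGB5 0.22 without _x_at and _s_at probe sets. The causes were not tested. The interaction has no estimate without an inhibitor array, and the within-siRNA tests were not run that way.

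The replicate block called 13 members for the knockdown, the 12 and ITGA3. Same-numbered arrays deviated with a correlation of 0.045 across genes, so the numbers were not taken to pair the arrays. Genes near the filter have wide intervals.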
